A study of Homo sapiens with 7 samples.

Results

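Sites where an OCA-B peak and an OCT1 peak overlapped in the lymphoma line OCI-Ly7 were compared by the height of each peak. Each height was read at that peak's own summit, and the summits of a pair need not coincide. Each OCT1 peak on chromosomes 1 to 22 and X was paired with the OCA-B peak that overlapped it by at least 1 bp and had the nearest summit. This gave 17142 pairs from 23571 OCT1 peaks and 55361 OCA-B peaks, out of 323423 peaks in the 6 lists of the series. No value of a peak other than its position chose the pairs, except that a tie in summit distance went to the higher OCA-B pileup.

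The series mapped OCA-B, OCT1, OCT2, MED1, CREBBP and EP300 by chromatin immunoprecipitation and sequencing (ChIP-seq), with an input library, in OCI-Ly7, a line from a human diffuse large B-cell lymphoma. Each factor had 1 library from 1 line, so the pairs have no replicate check, and no test between the factors was possible. The OCA-B library kept 19965282 tags and the OCT1 library 22503613 tags after duplicate removal, and both were called against the same control. The spread given below is over single chromosomes of these libraries or covers counting error only, and antibody, library and factor cannot be told apart.

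OCT1 (POU2F1) is a POU-domain transcription factor found in most cell types, and OCT2 (POU2F2) is its relative in B cells. Both read the octamer sequence ATGCAAAT. OCA-B (POU2AF1, also called OBF1 or BOB1) is a lymphoid coactivator that joins OCT1 or OCT2 on DNA and needs particular bases of the octamer to do so, and mice without it form no germinal centres. MED1 is a subunit of Mediator, which links activators to RNA polymerase II, and CREBBP and EP300 are histone acetyltransferases.

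Signal was read as the pileup, the number of extended fragments over the summit as the authors' peak caller wrote it. Pileups of the libraries differ in scale, so each was turned into a percentile among the 17142 pairs, and the rank difference is the OCA-B percentile minus the OCT1 percentile, in points. Its median over all pairs is near 0 by construction (2.05 points). A factor was called ahead where it stood at least 50 points above the other. A pair was called a promoter pair where its OCT1 summit lay within 1 kb of the start of a protein-coding or lncRNA gene in RefSeq's annotation of GRCh38.p14 (either end of the gene where the tables gave no strand), and distal otherwise.

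Promoter DNA is shown for examples of the main contrasts, picked with their values known. The stretches below lie around OCT1 summits, 5′ to 3′ on the gene's strand, cut at the gene's start (RefSeq, GRCh38.p14). Capitals mark the octamer on either strand, the related sequence ATGAATA on either strand, or the E-box CACGTG. PIM2 and TLR9 are shown because both factors stood at the top of their ranks there. MEF2B and ABTB2 hold the same octamer with OCT1 far ahead. FAM219A, ERCC2, DIAPH1 and RNF169 hold ATGAATA with OCT1 far ahead, and PLEKHG2 holds it with both factors high. RRAGB, RC3H2 and ATF6B are shown for the E-box, with OCA-B far ahead.

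PIM2 (chrX:48919109-48919229, minus strand): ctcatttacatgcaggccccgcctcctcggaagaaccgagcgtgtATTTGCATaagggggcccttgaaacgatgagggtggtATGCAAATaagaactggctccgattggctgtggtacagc
TLR9 (chr3:52225685-52225805, minus strand): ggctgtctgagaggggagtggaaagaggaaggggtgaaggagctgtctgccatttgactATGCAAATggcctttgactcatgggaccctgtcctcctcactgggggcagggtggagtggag
MEF2B (chr19:19170272-19170392, minus strand): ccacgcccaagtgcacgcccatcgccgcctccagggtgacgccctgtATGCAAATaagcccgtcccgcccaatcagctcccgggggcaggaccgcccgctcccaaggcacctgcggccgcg
ABTB2 (chr11:34358014-34358134, minus strand): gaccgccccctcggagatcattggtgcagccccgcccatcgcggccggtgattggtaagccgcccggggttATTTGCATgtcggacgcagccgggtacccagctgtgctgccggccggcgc
FAM219A (chr9:34458571-34458671, minus strand): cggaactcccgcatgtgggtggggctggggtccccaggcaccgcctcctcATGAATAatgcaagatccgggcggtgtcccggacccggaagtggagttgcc
ERCC2 (chr19:45370575-45370695, minus strand): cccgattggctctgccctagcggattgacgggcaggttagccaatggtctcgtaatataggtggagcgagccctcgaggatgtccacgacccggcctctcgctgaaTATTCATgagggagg
DIAPH1 (chr5:141619044-141619164, minus strand): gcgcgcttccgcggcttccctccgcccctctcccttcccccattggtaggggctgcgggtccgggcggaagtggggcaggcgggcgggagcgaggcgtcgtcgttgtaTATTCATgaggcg
RNF169 (chr11:74748719-74748839, plus strand): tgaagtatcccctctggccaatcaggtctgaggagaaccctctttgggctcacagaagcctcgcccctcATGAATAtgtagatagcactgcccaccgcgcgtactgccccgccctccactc
PLEKHG2 (chr19:39412419-39412523, plus strand): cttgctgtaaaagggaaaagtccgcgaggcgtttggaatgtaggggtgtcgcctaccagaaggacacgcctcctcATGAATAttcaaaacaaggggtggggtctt
RRAGB (chrX:55717677-55717748, plus strand): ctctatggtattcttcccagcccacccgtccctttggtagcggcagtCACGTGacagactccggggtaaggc
RC3H2 (chr9:122905395-122905515, minus strand): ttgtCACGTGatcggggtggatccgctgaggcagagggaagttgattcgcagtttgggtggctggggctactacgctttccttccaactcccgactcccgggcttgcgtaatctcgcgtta
ATF6B (chr6:32128288-32128408, minus strand): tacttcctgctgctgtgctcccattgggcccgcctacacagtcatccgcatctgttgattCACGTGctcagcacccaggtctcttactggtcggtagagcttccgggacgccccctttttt

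Most OCT1 peaks had an OCA-B partner, distal ones more often than promoter ones. A partner was found for 72.7% of OCT1 peaks, with 66.9% of the 9123 promoter peaks (56.7% to 76.7% over single chromosomes) and 76.4% of the 14448 distal peaks (66.3% to 81.4%). The pairs used 16346 OCA-B peaks, 29.5% of that list, and 728 of these held 2 to 5 OCT1 peaks. Paired OCT1 peaks had a median pileup of 28 and a median width of 343 bp, and unpaired OCT1 peaks a median pileup of 17 and a median width of 267 bp. The 585 pairs that overlapped by 50 bp or less were weak, with a median pileup of 20 for OCA-B and 20 for OCT1. A further 717 unpaired OCT1 peaks had an OCA-B peak within 100 bp, and their median OCT1 pileup was 18.

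The 2 factors ranked the shared sites alike only in part, and less alike at promoters than at distal sites. Spearman's rank correlation between the OCA-B and OCT1 pileups was 0.48 over the 6105 promoter pairs (0.31 to 0.62 over single chromosomes) and 0.64 over the 11037 distal pairs (0.55 to 0.73). With the fold enrichment over the control in place of the pileup, the rank correlation was 0.084 at promoters and 0.32 at distal sites. These correlations are descriptions over pairs, which are not independent.

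Relative to OCT1, OCA-B stood lower at promoters than at distal sites. The median OCA-B pileup was 36 at promoter pairs and 51 at distal pairs, and the median OCT1 pileup was 28 in both places. In percentiles among the pairs, the OCA-B median was 39.9 at promoters and 55.9 at distal sites, whereas the OCT1 median was 49.6 in both. The median rank difference was -3.49 points at promoters and 4.42 points at distal sites, and the promoter value was the lower one on 21 of 23 chromosomes. Within its own whole list, the median OCA-B partner stood at percentile 82.4 and the median paired OCT1 peak at percentile 59.2. The shared sites therefore lay high in the longer OCA-B list and near the middle of the shorter OCT1 list.

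**Figure D1:**
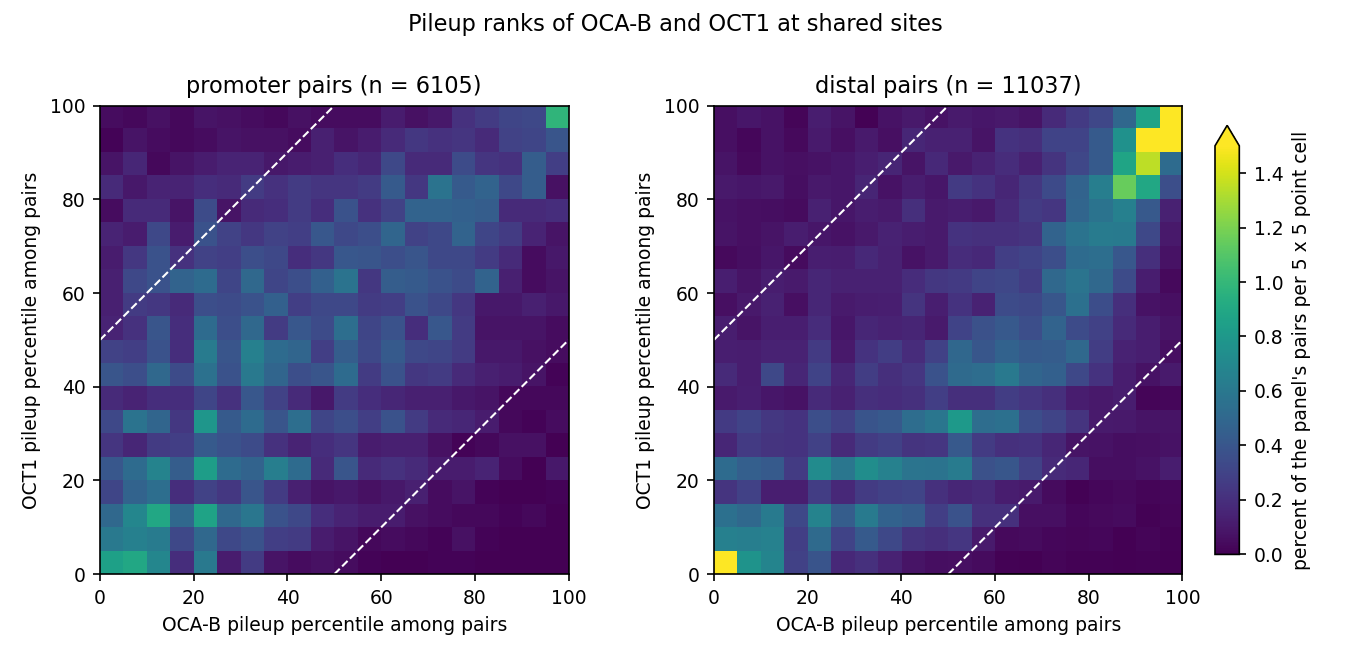
Percentile of the OCA-B pileup (x) against that of the OCT1 pileup (y) among the 17142 pairs, for 6105 promoter pairs (left) and 11037 distal pairs (right). Colour gives the percent of the panel's pairs in each cell of 5 by 5 points, and dashed lines mark a lead of 50 points. Distal pairs crowd the upper right corner, and promoter pairs spread more widely above the diagonal.

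The shapes of the peaks differed by place as well. At promoters the median width was 418 bp for OCA-B and 418 bp for OCT1, with a median width ratio of 1.02, and OCA-B was the wider peak in 51.0% of pairs. At distal sites the median width was 561 bp for OCA-B and 310 bp for OCT1, with a ratio of 1.73, and OCA-B was wider in 79.9% of pairs. The ratio was lower at promoters than at distal sites on each of the 23 chromosomes (0.799 to 1.298 at promoters, 1.44 to 1.87 at distal sites). Width moves with strength. The ratio was 4.45 where OCA-B was ahead and 0.52 where OCT1 was ahead, and between -10 and 10 points it was 1.11 at promoters and 1.68 at distal sites.

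Summits of the factors nearly coincided at distal sites and lay farther apart at promoters. The median distance between the summits was 98 bp at promoters (70 to 140 bp over single chromosomes) and 35 bp at distal sites (31 to 53.5 bp). Summits lay within 50 bp of each other in 32.2% of promoter pairs and 61.9% of distal pairs. The fragment length estimated by the peak caller, by which tags are shifted or extended, was 148 bp for OCA-B and 169 bp for OCT1, and its part in the distances was not tested. With every pair that held a peak over 1500 bp left out, the promoter median was 62 bp above the distal median, against 63 bp with all pairs.

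At promoters the OCA-B summit tended to lie upstream of the OCT1 summit. For the 5011 promoter pairs whose gene has a strand in the tables, the median OCA-B summit was at -130 bp and the median OCT1 summit at -75 bp from the gene's start. The OCA-B summit was the upstream one in 60.97% of these pairs (exact binomial interval 59.6% to 62.3%, counting error only) and the downstream one in 38.8%. The median signed distance was -33 bp, and it was below 0 on 22 of 22 chromosomes with strand (-71.5 to -7 bp). Where the summits were within 100 bp of each other, it was -9 bp.

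OCA-B summits also lay nearer than OCT1 summits to OCT2. At the 4834 promoter pairs with an OCT2 peak, the nearest OCT2 summit was a median of 32 bp from the OCA-B summit and 121 bp from the OCT1 summit, and OCA-B was the nearer factor in 75.5%. At the 10451 distal pairs with OCT2 these distances were 22 bp for OCA-B and 33 bp for OCT1, and OCA-B was nearer in 60.2%. The exception was distal pairs with OCT1 ahead, where OCT2 lay 34.5 bp from the OCA-B summit and 29 bp from the OCT1 summit, and OCT1 was nearer in 55.6% of 394 pairs.

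**Figure D2:**
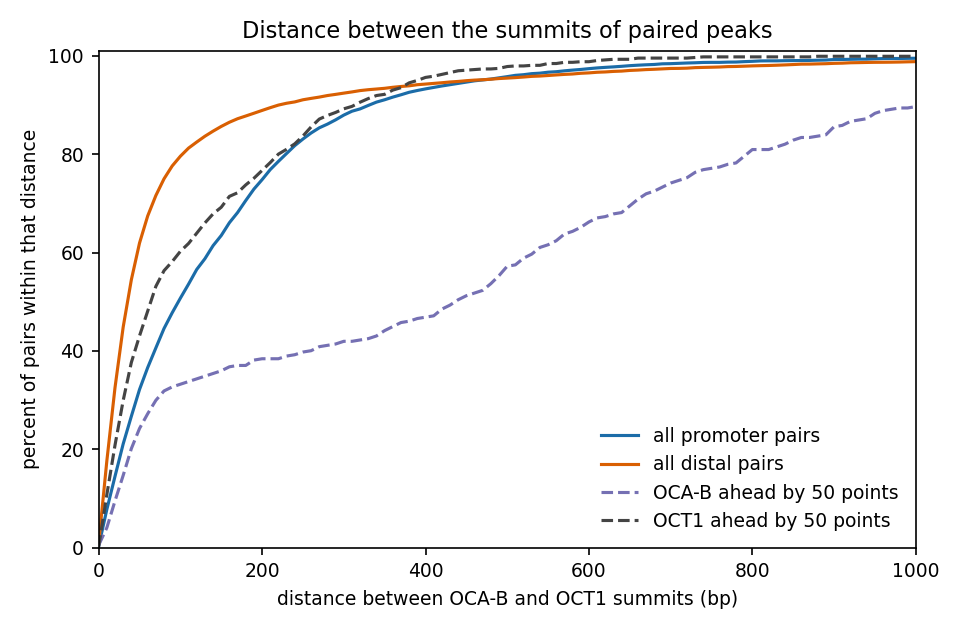
Cumulative percent of pairs (y) whose OCA-B and OCT1 summits lie within a distance in bp (x), for all promoter pairs, all distal pairs, and the pairs with OCA-B ahead or OCT1 ahead by 50 points. The distal curve rises fastest, and of the pairs with OCA-B ahead only 33.2% lie within 100 bp.

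By pileup percentile among the pairs, OCA-B was ahead by 50 points or more in 367 pairs (2.14% of all pairs) and OCT1 in 815 pairs (4.75%). Both shares depend on the scale. With percentiles taken in each whole list OCA-B was ahead in 8.59% and OCT1 in 1.37%, so the order of the 2 shares turned round. By fold enrichment they were 7.66% for OCA-B and 10.5% for OCT1, by −log10 q 6.14% and 8.41%, and with each OCA-B peak used once 1.25% and 4.64%. Just inside and outside that threshold, 122 pairs had OCA-B ahead by 50 to 55 points and 208 by 45 to 50 points, and 195 pairs had OCT1 ahead by 50 to 55 points and 270 by 45 to 50 points. OCA-B was ahead at 1.8% of promoter pairs (exact interval 1.48% to 2.17%) and 2.33% of distal pairs (2.06% to 2.63%). OCT1 was ahead at 6.29% of promoter pairs (5.69% to 6.93%) and 3.91% of distal pairs (3.55% to 4.28%). This gap of 2.38 points was 0.55 points with percentiles taken in each whole list. Ranked by fold enrichment in place of pileup, 364 of the 367 pairs with OCA-B ahead and 815 of the 815 with OCT1 ahead kept their direction, and 281 (76.6%) and 680 (83.4%) kept a lead of 50 points.

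The pairs with OCA-B ahead were of 2 kinds. Their median pileup was 97 for OCA-B and 19 for OCT1, and their median width 1069 bp for OCA-B and 226 bp for OCT1. In 245 of them the summits were over 100 bp apart (median 609 bp), and the peaks had a median width of 1324 bp for OCA-B and 226 bp for OCT1. In the other 122 the summits were within 100 bp (median 34 bp), with a median pileup of 79 for OCA-B and 18 for OCT1. The pairs with OCT1 ahead had a median pileup of 19 for OCA-B and 50 for OCT1, widths of 276 bp for OCA-B and 545 bp for OCT1, and summits a median of 65 bp apart. With each OCA-B peak used once, the order of the distances turned round, and the median was 25 bp smaller where OCA-B was ahead than where OCT1 was. Of 11879 pairs with summits within 100 bp, OCA-B was ahead in 1.03% and OCT1 in 4.13%.

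The other factors, which took no part in the pairing, differed sharply between the 2 groups. A MED1 peak overlapped either peak of the pair at 93.7% of pairs with OCA-B ahead (exact interval 90.7% to 96.0%) and at 33.3% of pairs with OCT1 ahead (30% to 36.6%), against 74.8% of all pairs. CREBBP lay at 93.7% of pairs with OCA-B ahead and 32.9% with OCT1 ahead, EP300 at 98.6% and 56.7%, and OCT2 at 97.3% and 73.0%, in that order. MED1 was the more frequent with OCA-B ahead on all 22 chromosomes that gave a value, by 30.9 to 78.9 points. A wide peak has more room for overlap, so the shares were also taken for summits within 100 bp. MED1 then lay at 88.5% of 122 pairs with OCA-B ahead and 24.4% of 491 pairs with OCT1 ahead, and OCT2 at 92.6% and 80.4%.

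Promoter and distal sites with OCT1 ahead differed in OCT2. At the 384 promoter pairs with OCT1 ahead, OCT2 was present in 52.3% (47.2% to 57.4%) and MED1 in 35.7%. At the 431 distal pairs with OCT1 ahead, OCT2 was present in 91.4% (88.4% to 93.9%) and MED1 in 31.1%. Over all pairs, OCT2 was present in 79.2% of promoter and 94.7% of distal pairs, and MED1 in 64.9% and 80.3%. At distal sites with OCT1 far ahead, OCT2 was thus only a little below its share over all distal pairs. MED1 was far below its own share there. With summits within 100 bp, the distal values were 95.6% for OCT2, 23.4% for MED1 and 44.4% for EP300 over 338 pairs, and the promoter values 47.1% for OCT2, 26.8% for MED1 and 47.7% for EP300 over 153 pairs.

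The share with MED1 followed the OCA-B rank more than the OCT1 rank. From the lowest to the highest quintile of OCA-B percentile, MED1 lay at 35.8%, 66.1%, 82.7%, 91.6% and 97.0% of pairs. From the lowest to the highest quintile of OCT1 percentile it lay at 60.7%, 73.2%, 75.6%, 78.5% and 84.8%. Within the lowest OCA-B quintile the share ran the other way, from 39.2% in the lowest OCT1 quintile to 22.7% in the highest. Within the highest OCA-B quintile it was between 90% and 97.8% in every OCT1 quintile.

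**Figure D3:**
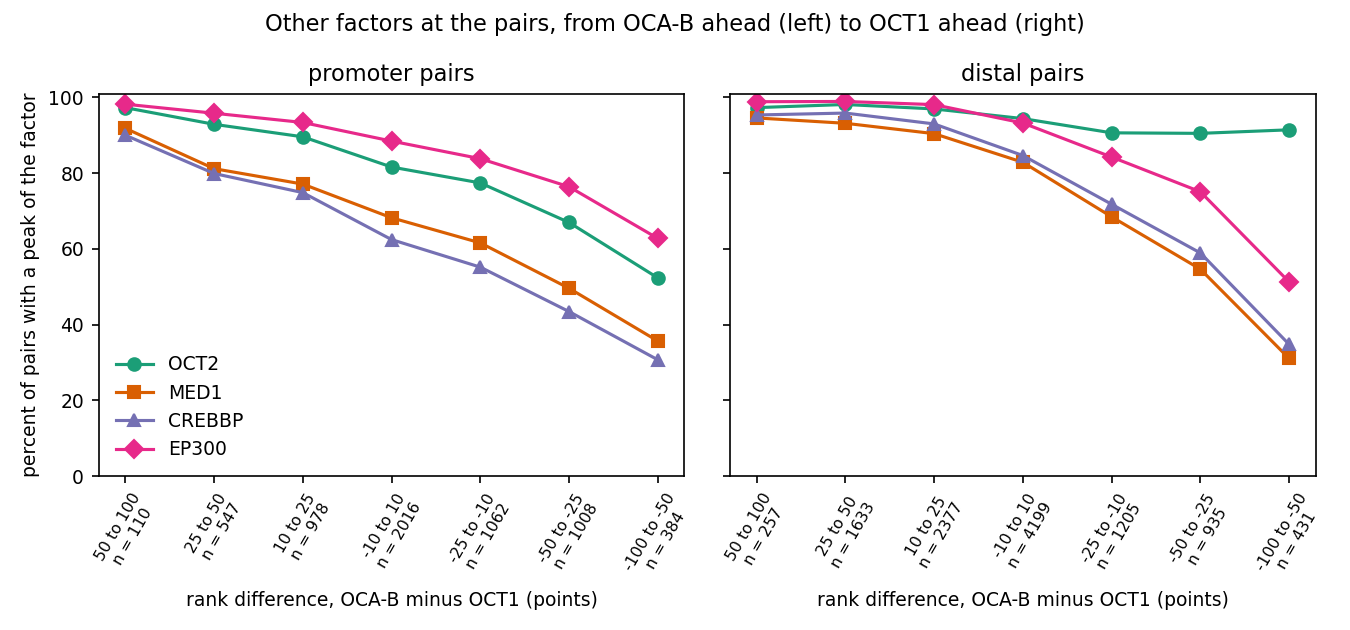
Percent of promoter pairs (left) and distal pairs (right) with a peak of OCT2, MED1, CREBBP or EP300 (y) by bin of the rank difference in points (x), with the number of pairs under each bin. From OCA-B ahead on the left to OCT1 ahead on the right, MED1 falls to 35.7% at promoters and 31.1% at distal sites, while OCT2 is at 52.3% at promoters and 91.4% at distal sites in the last bin.

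At single genes, the strongest promoter pairs of both factors came first. These 8 genes shared 7 pairs, and at each pair both percentiles were within 1 point of each other. PIM2, a serine/threonine kinase that promotes survival of B cells, had a pileup of 249 for OCA-B and 257 for OCT1, with summits 12 bp apart. TLR9, the receptor for unmethylated DNA in B cells, had 221 for OCA-B and 221 for OCT1, also 12 bp apart. FAM117A (260 for OCA-B, 305 for OCT1), the GTP-binding protein gene GTPBP1 (238 and 337), the exchange factor gene PLEKHG2 (237 and 292) and the small GTPase gene RRAS (224 and 313) followed. The divergent genes PRDX5, a peroxiredoxin, and TRMT112, a methyltransferase activator, shared a pair with 223 for OCA-B and 294 for OCT1.

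Among 5679 protein-coding genes with a promoter pair, each taken by its pair of highest OCT1 pileup, OCA-B was ahead at 37 (0.652%) and OCT1 at 417 (7.34%). The median rank difference over these genes was -7.03 points. Taking the highest OCT1 peak favours OCT1 in both counts and in the median. Over all promoter pairs OCA-B was ahead at 1.8% and OCT1 at 6.29%, and the median was -3.49 points. The gene lists below take the pair of each gene in the same way.

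Genes with OCA-B ahead included several with coinciding summits. PIK3C2A, a class II phosphoinositide 3-kinase, had a pileup of 89 for OCA-B (exact 95% Poisson interval, counting error only, 71.5 to 109.5) and 15 for OCT1 (8.40 to 24.7), with summits 34 bp apart. RRAGB, a Rag GTPase that signals amino acids at the lysosome, had 79 for OCA-B and 15 for OCT1, 37 bp apart. RAP2A, a Ras-related GTPase, had 148 for OCA-B and 21 for OCT1, 40 bp apart. OCT2 and MED1 were present at all 3 of these genes.

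CTSA, which encodes the lysosomal carboxypeptidase cathepsin A, and its neighbour NEURL2 shared a pair with 120 for OCA-B and 20 for OCT1, 70 bp apart. No peak of OCT2, MED1, CREBBP or EP300 overlapped it. SLC25A38, a mitochondrial glycine carrier, had 75 for OCA-B and 15 for OCT1 with summits 60 bp apart, and TFAP4, a basic helix-loop-helix factor, had 76 for OCA-B and 16 for OCT1, 20 bp apart. Other leads came with distant summits. At ZNF70, a zinc finger gene, a pileup of 101 for OCA-B lay 656 bp from one of 15 for OCT1, at AIFM1, a mitochondrial flavoprotein gene, 192 for OCA-B lay 391 bp from 20 for OCT1, and at GRN, which encodes progranulin, 125 for OCA-B lay 200 bp from 21 for OCT1.

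SMIM24 (161 for OCA-B and 22 for OCT1, 160 bp apart) and the adhesion receptor gene ADGRL1 (102 and 19, 121 bp apart) completed the 12 genes with the largest lead of OCA-B. Ranked by fold enrichment, the lead of OCA-B at AIFM1 was 32.6 points, at SLC25A38 47.3 points and at ADGRL1 40.9 points, and the other 9 genes stayed at 50 points or more.

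At the 12 genes with the largest lead of OCT1, MED1 was absent throughout. FAM219A and DNAI1, which encodes a dynein chain of cilia, shared a pair at chromosome 9 with a pileup of 13 for OCA-B (6.92 to 22.2) and 241 for OCT1 (211.5 to 273.4). The summits were 9 bp apart, and the OCA-B peak, from 34458533 to 34458688 (hg38), lay inside the OCT1 peak, from 34458341 to 34458973. OCT2 and EP300 were present there, and MED1 and CREBBP were not. FBXO47, an F-box gene of the germ line, had 14 for OCA-B and 103 for OCT1 with summits 44 bp apart and OCT2 alone among the other factors.

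THRA, the thyroid hormone receptor alpha gene, had 15 for OCA-B and 121 for OCT1, 46 bp apart. YARS1, a tRNA synthetase gene, had 10 for OCA-B and 62 for OCT1, 15 bp apart. Neither had a peak of any other factor. With summits farther apart, NFIB, a nuclear factor I gene, had 11 for OCA-B and 104 for OCT1, and TMEM39B had 12 for OCA-B and 102 for OCT1. The neighbours PLEKHJ1 and SF3A2, a splicing factor gene, shared 13 for OCA-B and 81 for OCT1, and KIF15, a mitotic kinesin gene, shared with KIAA1143 a pair of 15 for OCA-B and 93 for OCT1. UCKL1, a uridine kinase-like gene, had 12 for OCA-B and 68 for OCT1. By fold enrichment, OCT1 led by 71.2 points or more at each of these 12 genes.

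At distal sites the 8 largest leads of OCA-B all had summits 315 to 2327 bp apart, so their pileups were read at different positions. The largest lay 89.0 kb from ZNF280B (173 for OCA-B and 14 for OCT1). One 48.0 kb from TENT5C, a poly(A) polymerase gene highly expressed in plasma cells, had 171 for OCA-B and 18 for OCT1, with summits 683 bp apart. Others were nearest to FSTL3 (142 for OCA-B and 13 for OCT1), ENTPD4 (220 and 16), PARP16 (147 and 14), C10orf105 (148 and 16), DNAJB12 (176 and 18) and MGAT3 (175 and 18). OCT2 and EP300 were present at all 8, and MED1 at all but the FSTL3 site.

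The 8 largest distal leads of OCT1 had summits 9 to 112 bp apart. The first, 13.1 kb from AGRN, the gene of the basement membrane protein agrin, had a pileup of 11 for OCA-B (5.49 to 19.7) and 223 for OCT1 (194.7 to 254.3), and no other factor. The second, 1.15 kb from TMEM129, had 11 for OCA-B and 214 for OCT1, with all 4 other factors. A site 24.8 kb from SRP54, a signal recognition particle subunit, had 13 for OCA-B and 156 for OCT1, with OCT2 alone. The site nearest to CLEC16A had 12 for OCA-B and 110 for OCT1, and that nearest to NUP62CL 12 for OCA-B and 127 for OCT1. The other 3 were nearest to GOLGA6L22, which has near-identical copies, and to LOC128071544 and LOC105372204. These had 9 to 10 for OCA-B and 96 to 135 for OCT1, and where reads of repeated sequence were placed is not given in the sources used here.

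The number of genes with a promoter pair varied between the gene lists. Of 25 B cell identity genes, 17 had a promoter pair, compared with 2 of 15 T cell genes (LCK and CD28) and 1 of 15 myeloid genes (CEBPE). The share was lower for class II antigen presentation genes (4 of 13) and CD40 and NF-kB response genes (8 of 18). Having a pair was not particular to B cell genes. It was found for 31 of 38 replication and mitosis genes, 61 of 74 ribosomal protein genes and 21 of 47 annotated zinc finger genes. The share over all genes was not computed, so these counts show no enrichment of any list. Neither factor was ahead at any of the 17 B cell identity genes, a count near the shares of all genes (0.652% and 7.34%). Their median rank difference was 3.12 points, against -7.03 points over all 5679 genes, and this gap of 10.2 points was 0.81 points with percentiles taken in each whole list. MS4A1, which encodes CD20, had 204 for OCA-B and 68 for OCT1, and CD79A, a chain of the B cell receptor, had 153 for OCA-B and 53 for OCT1. Its partner CD79B had 100 for OCA-B and 125 for OCT1, and POU2AF1 itself had 86 for OCA-B and 37 for OCT1, with summits 4 bp apart. FCRLA, an Fc receptor-like gene, and CD22, an inhibitory co-receptor, stood highest for OCA-B, at 19.9 and 16.9 points. The lowest was TCF3, the E2A gene, with 26 for OCA-B and 38 for OCT1, a difference of -43.2 points.

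Of 24 germinal centre genes 17 had a promoter pair, with a median difference of 2.80 points, OCA-B ahead at 0 and OCT1 ahead at 1, again near the shares of all genes. The gene with OCT1 ahead was MEF2B, a germinal centre transcription factor, with a pileup of 23 for OCA-B (14.6 to 34.5) and 109 for OCT1 (89.5 to 131.5). Its summits were 4 bp apart, OCT2 and MED1 were present, and the centre of the octamer printed above lay 5.5 bp from the OCA-B summit and 9.5 bp from the OCT1 summit. GCSAM, a germinal centre adaptor, had 89 for OCA-B and 154 for OCT1. In the other direction CD38, an ectoenzyme of activated B cells, had 65 for OCA-B and 20 for OCT1 (43.2 points), and LMO2 had 29 for OCA-B and 14 for OCT1 (25.2 points).

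Of 20 B cell receptor signalling genes 13 had a pair, with a median of -0.11 points and neither factor ahead. BTK, a tyrosine kinase, had 25 for OCA-B and 14 for OCT1 (19.5 points). SOS1, a Ras exchange factor, had 27 for OCA-B and 37 for OCT1 (-40.3 points), and INPP5D, the phosphatase SHIP1, had 44 for OCA-B and 40 for OCT1 (-23.0 points). Of 20 plasma cell genes 15 had a pair, with a median of 6.73 points. XBP1, a regulator of secretion, led with 35 for OCA-B and 14 for OCT1 (33.3 points), followed by EDEM1 (29.5 points), and TENT5C (-32.8 points) and PDIA4 (-27.6 points) stood lowest. Neither factor was ahead at any of the 15.

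Of 18 genes of the CD40 and NF-kB response 8 had a pair (median 2.90 points), from NFKB2 at -41.4 and BCL2A1 at -14.4 points to RELB at 16.9 and ICAM1 at 25.7 points. Of 13 class II antigen presentation genes 4 had a pair (median -0.80 points), with CIITA at -7.94, HLA-DOB at -4.72, CD74 at 3.12 and RFX5 at 26.5 points.

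**Figure D4:**
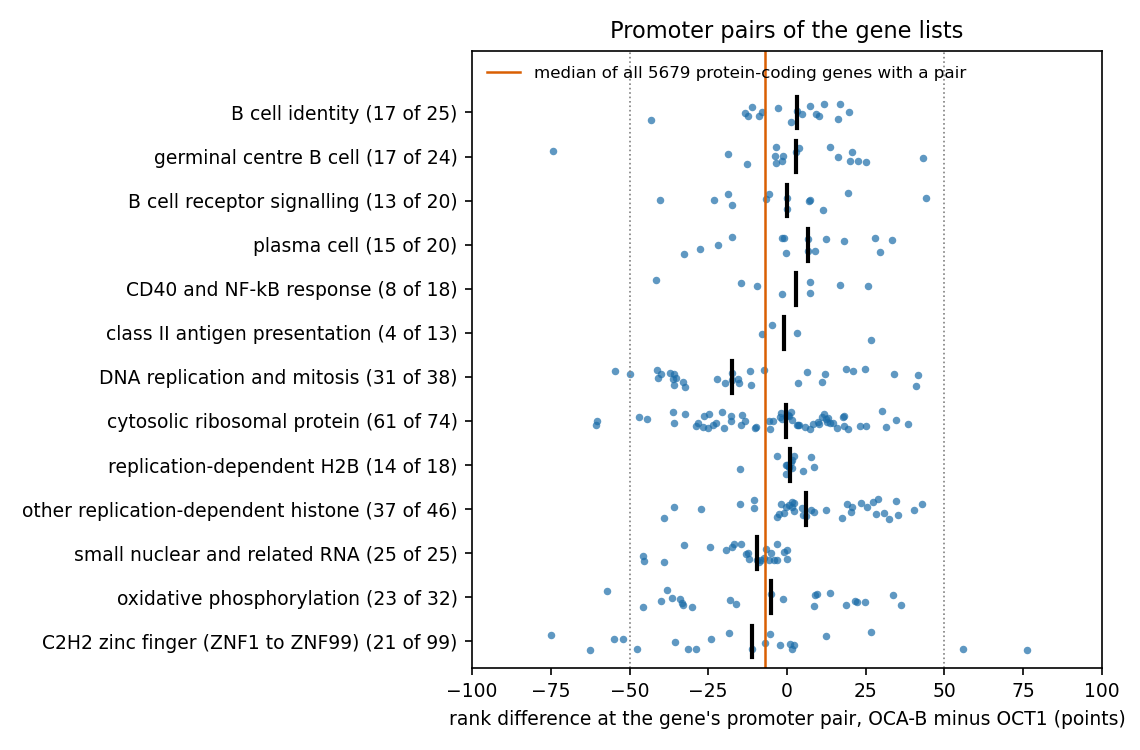
Rank difference in points (x) at the promoter pair of each gene, by gene list (y), with the number of genes with a pair of the number in the list. Points are genes, black ticks the list medians, the vertical line the median of -7.03 points over 5679 genes, and dotted lines a lead of 50 points. Replication and mitosis genes have the lowest tick, at -17.4 points.

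DNA replication and mitosis genes had the lowest median of the lists drawn. Of 38 DNA replication and mitosis genes 31 had a pair, and 21 of these had a rank difference below 0, with a median of -17.4 points. Over all 5679 genes, 62.3% had a difference below 0. OCT1 was ahead at RRM1, a ribonucleotide reductase subunit, with 22 for OCA-B and 42 for OCT1, and the kinesin gene CENPE had 21 for OCA-B and 37 for OCT1 (-49.8 points). The checkpoint gene MAD2L1 had 58 for OCA-B and 19 for OCT1 (41.7 points) and FOXM1, a mitotic transcription factor, 57 for OCA-B and 19 for OCT1 (40.9 points). Of 32 oxidative phosphorylation genes 23 had a pair (median -5.07 points). OCT1 was ahead at NDUFV1 (15 for OCA-B and 35 for OCT1), UQCRFS1 was at -45.7 points, and ATP5PB and COX5A were at 33.7 and 36.2 points. Of 74 ribosomal protein genes 61 had a pair (median -0.43 points). OCT1 was ahead at RPS15 (15 for OCA-B and 37 for OCT1) and RPS16 (18 and 41), and RPS6 (104 and 27) and RPL17 (86 and 26) stood highest for OCA-B.

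Among the zinc finger genes named ZNF1 to ZNF99, 21 had a pair, with a median of -11.0 points. OCA-B was ahead at 2 of them, ZNF70 and ZNF90 (55 for OCA-B and 13 for OCT1), and OCT1 at 4, led by ZNF8 (16 for OCA-B and 55 for OCT1) and ZNF26 (11 and 35).

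Replication-dependent H2B genes and small nuclear RNA genes are classical octamer genes. All replication-dependent histone genes and the small nuclear RNA genes are given apart from the other lists. Of 18 H2B genes 14 had a pair, with a median pileup of 182.5 for OCA-B and 122.5 for OCT1 and median percentiles of 97.4 for OCA-B and 96.7 for OCT1. The difference ran from -15.0 points at H2BC15 and -3.07 points at H2BC17 to 7.66 points at H2BC11 and 8.70 points at H2BC13. H2BC3 had 248 for OCA-B and 171 for OCT1, with summits 24 bp apart. The other replication-dependent histones, 37 of 46 with a pair, had a median pileup of 136 for OCA-B and 46 for OCT1 and a median difference of 6.07 points. H1-5 (109 for OCA-B and 26 for OCT1) and H1-2 (111 and 27) stood highest, with summits over 800 bp apart, and H3C10 (18 and 29) and H3C15 (33 and 40) lowest. With percentiles taken in each whole list, the medians of both histone lists, of the CD40 and NF-kB list and of the oxidative phosphorylation list lay below that of all genes, and among the pairs above it, and the order turned the other way for the ZNF1 to ZNF99 list.

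The 25 small nuclear and related RNA genes all had a pair, and the OCA-B percentile was the lower one at 24 of them, with a median difference of -9.65 points. Their median pileup was 109 for OCA-B and 128 for OCT1, with summits a median of 221 bp apart. RNU1-1 had 47 for OCA-B and 146 for OCT1, RNU6-8 had 44 for OCA-B and 93 for OCT1, and RN7SK, which binds the elongation factor P-TEFb, had 48 for OCA-B and 80 for OCT1. RNU2-1 had 217 for OCA-B and 200 for OCT1. Copies of these genes are nearly identical, so reads may be split between them.

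Sequence was read in the RefSeq promoter windows, each 250 bases before to 50 bases after a gene's start, for the 3160 promoter pairs whose OCT1 summit lay in the window of its gene. The octamer ATGCAAAT, on either strand, was in 2.94% of these windows and in 1.8% of all 27195 windows. It was in 27.3% of the 161 windows where both factors were above percentile 80 (44 windows, exact interval 20.6% to 34.9%). Where OCA-B was above percentile 80 and OCT1 below 50 it was in 1 of 33 windows, and where OCT1 was above 80 and OCA-B below 50 in 6.06% of 165 (2.94% to 10.9%). Where both were below 50 it was in 0.46% of 1093.

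Pairs with the octamer had high median ranks for both factors and close summits. The 93 pairs with the octamer had a median OCA-B percentile of 82.1 and OCT1 percentile of 90.8, and summits 36 bp apart. The 3067 pairs without it had medians of 38.7 for OCA-B and 54.6 for OCT1, and summits 99 bp apart. In the 88 windows with 1 match, the octamer's centre lay a median of 26 bp from the OCA-B summit and 24.5 bp from the OCT1 summit. OCA-B was ahead at 0 of the 93, and OCT1 at 8, among them ABTB2 (16 for OCA-B and 92 for OCT1), HMGA1 (11 and 53), APAF1 (17 and 67) and MEF2B. Of the 3067 pairs without the octamer, OCA-B was ahead at 20 and OCT1 at 236. The share with OCT1 ahead was thus much the same, 8.60% with the octamer and 7.69% without it. Of the printed stretches, PIM2 holds 2 octamers, and TLR9, MEF2B and ABTB2 hold 1 each.

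A related sequence, ATGAATA, as in FAM219A, was chosen for the search with the values known. It was in 40 of the 3160 windows, with median percentiles of 48.0 for OCA-B and 79.2 for OCT1, where windows without it had 39.9 for OCA-B and 54.6 for OCT1, and OCT1 was ahead at 10 of them (25%) against 7.5% of windows without it. It was in 2.90% of all windows, a larger share than among the pairs (1.27%). Its extension by 1 base to ATGAATAT, chosen after the values were seen, was in 18 windows, with medians of 51.9 for OCA-B and 98.3 for OCT1. OCA-B ranked below OCT1 at all 18, and OCT1 was ahead at 7 of them (38.9%). In the 3142 windows without ATGAATAT, OCT1 was ahead at 7.54%, and the median rank difference was already below 0, at -8.71 points.

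ERCC2, a DNA repair helicase gene, had 19 for OCA-B and 235 for OCT1 with summits 212 bp apart, and DIAPH1, a formin gene, had 20 for OCA-B and 219 for OCT1 with summits 285 bp apart. RNF169, a ubiquitin ligase gene of the DNA damage response, had 39 for OCA-B and 281 for OCT1, and PDZRN4 had 24 for OCA-B and 152 for OCT1. Both factors were above percentile 80 at 4 of the 18, which were PLEKHG2 (237 for OCA-B and 292 for OCT1), ELL, an elongation factor gene (125 and 326), CEP85L (100 and 213) and INTS6L (184 and 165), whose window also holds the octamer. OCT2 was present at 94.4% of the 18 pairs and MED1 at 77.8%, against 77.0% and 60.7% of the 3142 pairs without ATGAATAT. At the 93 pairs with the octamer the shares were 97.8% for OCT2 and 73.1% for MED1.

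Octamers with another base at position 5 (ATGCNAAT without ATGCAAAT) were in 37 windows, with medians of 42.3 for OCA-B and 80.01 for OCT1. OCT1 was ahead at 7 of these (18.9%), against 7.59% of windows without such a sequence.

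**Figure D5:**
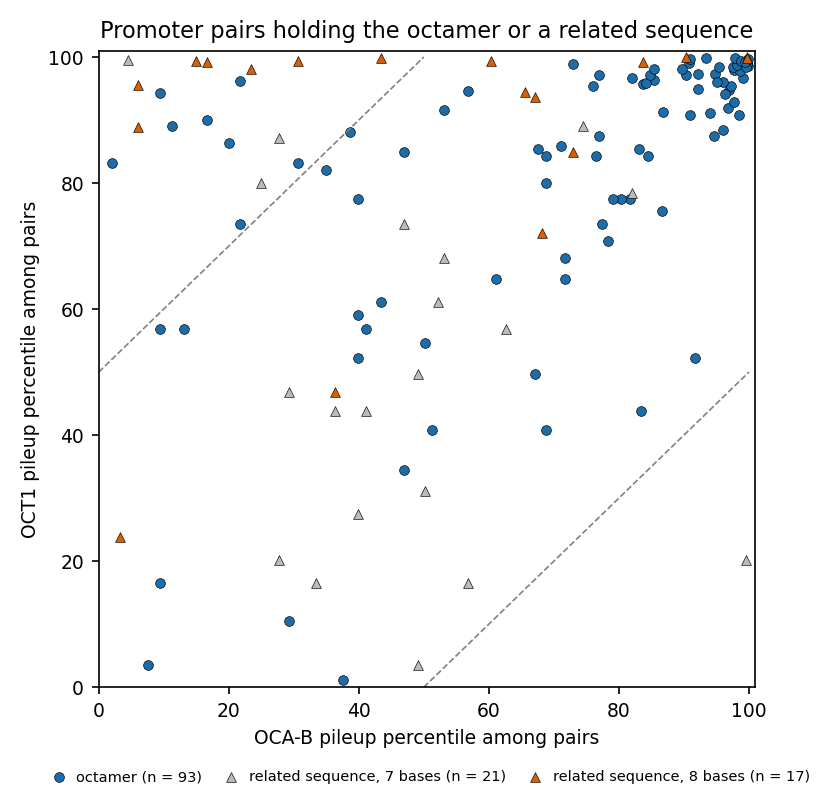
OCA-B percentile (x) against OCT1 percentile (y) for promoter pairs whose 300-base window holds the octamer (circles, 93 pairs) or the related sequence of 7 or 8 bases (triangles). Dashed lines mark a lead of 50 points, and a window with both kinds of sequence is drawn as octamer. Circles gather in the upper right, and most triangles of 8 bases lie near the top, from low to high OCA-B.

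Where OCA-B was ahead, the octamer was in 0 of 20 windows. The exact interval, 0% to 16.8%, holds its share of 2.94% over all 3160 windows. The E-box CACGTG was in 8 of the 20 (40.0%, exact interval 19.1% to 63.9%, counting error only). Its letters were chosen for the search after windows were seen, so this share cannot show an enrichment. The E-box was in 12.8% of all 3160 windows and 7.45% of the 27195. Of the 404 windows with it, OCA-B was ahead at 8 and OCT1 at 31 (7.67%). Of the 2756 without it, OCA-B was ahead at 12 and OCT1 at 213 (7.73%). The 8 were RRAGB, the NEURL2 and CTSA pair, SLC25A38, RC3H2, an RNA-binding ubiquitin ligase gene (151 for OCA-B and 26 for OCT1, 7 bp apart), ATF6B, an endoplasmic reticulum stress factor gene (57 and 16, 2 bp apart), KDM4C, MED28-DT and FMO1-AS1. In 7 of the 8 the summits were within 100 bp. The other letters searched on both strands were CCAAT, found in 25% of windows with OCA-B ahead, 53.7% with OCT1 ahead and 46.5% of all pairs, the GC box GGGCGG (50%, 79.5% and 69.1%), the cyclic AMP response element TGACGTCA (0%, 9.43% and 5%), the ETS sequence CCGGAAG (25%, 18.03% and 26.1%) and TATAAA (10%, 2.05% and 4.87%). In all 27195 windows these were in 35.7%, 44.7%, 1.98%, 10.7% and 11.97%. The median GC content was 59.5% with OCA-B ahead and 67% with OCT1 ahead, against 62.3% of all pairs, and its part in these shares was not tested. A match of letters is a description of the window and not of binding to it.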

How the data were processed

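ChIP-seq peak lists of OCI-Ly7 cells, 1 library per factor, were used as deposited. Per the submitters' processing notes, the peak caller was MACS2 (2.1.1.20160309), the build hg38, the aligner Bowtie2 (2.3.2.2), and SAMtools (1.3.1) and CASAVA (1.8.2) were also used. Per the file headers, each library was called alone against a common input at q 0.05 with duplicates removed. The authors deposited for each peak its position, summit, pileup signal (coverage at the summit), −log10 p and q and fold enrichment over the control. Peaks on other contigs were left out (2086 OCA-B, 942 OCT1).

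Pairing, percentiles (ties averaged), exact binomial and Poisson intervals (95%) and letter searches were computed with Python 3.11.15, pandas 2.3.3 and scipy 1.17.1. The pairing was tested on simulated peaks. Gene starts have a strand for 71.3% of 38151 genes and none on chromosome 8. Named genes were the 12 promoter genes and 8 distal pairs with the largest difference in each direction, the 8 promoter genes highest for both factors, and 2 genes in each direction per list. One gene that this rule takes is not reported here. Genes named for their letters were chosen after their values were seen. The pairs and gene lists were chosen with earlier results of these data known.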

Additional observations from a re-analysis of the deposited data

How the results depend on the processing

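With 1 library per factor, values were judged against the spread over chromosomes, exact intervals for shares, or 5 points for medians of gene lists, and the number of pairs against a factor of 1.5. Over 12 alternatives, 295 values stayed within these limits, 78 moved beyond them and 14 changed sign. The width ratio, the MED1 difference between the leads and the octamer result (median OCA-B percentile with it minus without it) stayed within them in every alternative that gave a value. The limits were wide, 13.5 points for the MED1 difference and 24.4 points for the octamer result, so this is a weak check. The MED1 difference was 60.5 points, and 47.2 points with a lead of 30 points. The number of pairs (17142) stayed within 1.5 times, from 11879 with summits within 100 bp upwards. The promoter minus distal rank difference (-7.91 points) was -18.1 by fold enrichment, -14.0 by −log10 q and -4.34 in whole-list percentiles. The share of pairs with OCT1 ahead, promoter minus distal (2.38 points), was 10.03 by fold enrichment, 6.99 by −log10 q and 8.35 with a lead of 30 points. It was 0.55 in whole-list percentiles and 0.94 with summits within 100 bp. The limit used for this gap, 2.81 points, was larger than the gap itself. The promoter minus distal summit distance (63 bp) was 12 bp when only summits within 100 bp were kept, which limits it by construction. The summit distance with OCA-B ahead minus that with OCT1 ahead (370 bp) was -25 bp with each OCA-B peak used once, -74.5 by fold enrichment, -32 by −log10 q and -8.5 with a lead of 30 points. The replication and mitosis median minus the B cell identity median (-20.5 points) was -36.4 by fold enrichment, -34.9 by −log10 q, -5.37 in whole-list percentiles and -14.5 with no peak over 1500 bp. Relative to all genes, whole-list percentiles turned the median of the CD40 and NF-kB list to -3.81, of H2B to -8.89, of the other histones to -0.62 and of oxidative phosphorylation to -5.16. The last was also -8.69 with −log10 q over 5, and -3.37 and -9.72 with promoters of 500 bp and 2.5 kb. The small nuclear RNA median turned to 1.36 by −log10 q, and that of ZNF1 to ZNF99 to 0.21 in whole-list percentiles and 0.63 with −log10 q over 5. The causes were not tested. No paired analysis was possible because each factor had 1 library and no result comes from a test. Shallow peaks limit the ranks: an OCT1 pileup of 15 has a Poisson interval of 8.40 to 24.7.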
